A study of Mus musculus with 17 samples.

Results

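The proteasome genes of macrophages from mouse synovium, the membrane that lines the joint, were examined in 3 sorted subsets of control mice and of mice given immune complexes (ICs). Members were chosen by symbol, as every gene of the count table whose name starts with Psma, Psmb, Psmc, Psmd, Psme, Psmf or Psmg and a number, together with Pomp. This gave 53 of 22859 genes. They comprised 49 genes of subunits, activators, an inhibitor and assembly factors, and 4 further symbols that share the name pattern. Of the 53 genes, 52 had enough counts to be tested.

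The proteasome is the protease that degrades proteins tagged with ubiquitin. Its barrel-shaped core particle is built from rings of α and β subunits, and the peptide bonds are cut by the β subunits encoded by Psmb5, Psmb6 and Psmb7. In immune cells, and in most cells exposed to interferon-γ, newly built cores can carry Psmb8, Psmb9 and Psmb10 in their place, which gives the immunoproteasome, known for producing peptides that suit MHC class I. The regulatory particle, made of Psmc ATPases and Psmd subunits, binds and unfolds the tagged proteins, whereas Psme1 and Psme2 form the interferon-inducible activator PA28. Macrophages use this system both to turn over proteins and to supply antigen presentation.

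All mice, controls included, lacked Fcgr2b, which encodes the Fcγ receptor that restrains activation by immunoglobulin G, so no mouse with an intact gene was compared. ICs were ovalbumin bound by polyclonal rabbit antibody and were injected into the tail vein, and tissue was taken after 8 h. The mice were adults of both sexes. Macrophages were sorted from collagenase-digested synovium as LYVE1+CX3CR1+ (labelled Lyve1), MHCII+CD11c- (labelled IAIE) and MHCII+CD11c+ (labelled CD11c) cells. Every group held 3 libraries, from controls (labelled Healthy) or after IC, apart from MHCII+CD11c+ macrophages after IC with 2. Whether libraries of different subsets came from the same mice was not stated, and the p-values measure the spread between these libraries.

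Libraries held between 2301913 and 7248939 counts, of which between 6613 and 28949 fell on the 53 members. Levels are given as CPM, read counts relative to library sizes scaled by the trimmed mean of M-values, and levels of different genes are compared only as CPM per kb of exon. The defining markers followed the labels. The summed level of H2-Aa, H2-Ab1, H2-Eb1 and Cd74 was 102 to 156 CPM in LYVE1+CX3CR1+ controls against 16325 to 17607 CPM and 20682 to 34219 CPM in the MHCII+CD11c- and MHCII+CD11c+ controls, and Itgax, which encodes CD11c, was at 275 to 434 CPM in MHCII+CD11c+ controls and at most 16 CPM in the other controls. The MHCII+CD11c+ controls stood apart in further lists. They had 2570 to 3338 CPM of 6 macrophage markers against 6846 to 10085 CPM and 6749 to 10037 CPM in the LYVE1+CX3CR1+ and MHCII+CD11c- controls. In the same order, they had 83.0 to 147 CPM of 5 dendritic cell markers against 11.3 to 14.9 CPM and up to 71.5 CPM. For 6 markers of the LYVE1 side they had 64.3 to 632 CPM against 3847 to 4735 CPM and 1021 to 1903 CPM. At equal depth, 11547 to 13840 genes were detected in LYVE1+CX3CR1+ libraries after IC, fewer than the 16380 to 17395 of their controls.

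The share of all counts that fell on proteasome genes was 0.267, 0.262 and 0.243% in the 3 LYVE1+CX3CR1+ controls, 0.233, 0.289 and 0.229% in the MHCII+CD11c- controls and 0.343, 0.387 and 0.342% in the MHCII+CD11c+ controls. After IC it was 0.353, 0.317 and 0.290%, 0.338, 0.306 and 0.364% and 0.411 and 0.375%, respectively. In LYVE1+CX3CR1+ and in MHCII+CD11c- macrophages, each library after IC had a larger share than each control, whereas the ranges overlapped in MHCII+CD11c+ macrophages. Because these are bulk samples, fewer cells of a type and less RNA per cell cannot be told apart. Per kb of exon, the mean over all 17 libraries was highest for Psme1 (123 CPM per kb) and the α subunit gene Psma4 (103 CPM per kb). The medians of the mean levels were close to each other in the structural groups. They were 43.7 CPM per kb for 8 α subunit genes (Psma8 included), 44.1 for the 6 base ATPases and 36.9 for 11 further genes of the regulatory particle. The 8 assembly factors were lower, with a median of 6.89 CPM per kb, and the inhibitor gene Psmf1 was at 3.37 CPM per kb. Subunits of special proteasomes were close to 0. Psmb11, the catalytic subunit of the thymus proteasome, had at most 2.56 CPM in any library and was the gene left untested, and Psma8, the α subunit of the testis proteasome, had at most 3.18 CPM.

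The genes of the inducible subunits Psmb8 and Psmb9 lie side by side in the MHC class II region (chromosome 17, 34181987 to 34187764, minus strand for Psmb9 and chromosome 17, 34197721 to 34201454, plus strand for Psmb8, GENCODE spans on GRCm38), with Tap1, which encodes part of the peptide transporter for MHC class I, between them. The start sites of Psmb9 and Tap1 in RefSeq face away from each other and are 226 bases apart, so that their promoter windows (250 bases before to 50 bases after the start site) share 275 bases. In GENCODE the spans of Psmb9 and Tap1 overlap, and the RefSeq windows of Psmb8 and Psmb9 lie within the GENCODE spans of these genes. Psmb10 is on chromosome 8, and the constitutive genes Psmb5, Psmb6 and Psmb7 are on chromosomes 14, 11 and 2. The windows of Psmb8, Psmb9 and Psmb5 are shown because the results set these genes against each other. Of 4 motifs searched on both strands (capitals), the Psmb8 window (chr17:34197945-34198244, plus strand) held the gamma-activated sequence TTCNNNGAA, bound by STAT factors, which is in 8.30% of all 32851 RefSeq windows of this length. The Psmb9 window (chr17:34187281-34187580, minus strand) held CCAAT, as 37.4% of all windows do. The Psmb5 window (chr14:54617946-54618245, minus strand) held the antioxidant response element TGACNNNGC, present in 12.4% of windows. The fourth motif was the interferon-stimulated response element, written as GAAA, 2 bases of any kind and GAAA (3.44% of windows), and none of these 3 windows held it.
Psmb8: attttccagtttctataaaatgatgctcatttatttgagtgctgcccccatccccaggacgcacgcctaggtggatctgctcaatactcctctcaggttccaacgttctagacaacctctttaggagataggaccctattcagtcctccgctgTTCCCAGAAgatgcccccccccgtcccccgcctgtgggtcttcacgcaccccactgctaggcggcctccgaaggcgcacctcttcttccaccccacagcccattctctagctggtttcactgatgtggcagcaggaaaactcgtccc
Psmb9: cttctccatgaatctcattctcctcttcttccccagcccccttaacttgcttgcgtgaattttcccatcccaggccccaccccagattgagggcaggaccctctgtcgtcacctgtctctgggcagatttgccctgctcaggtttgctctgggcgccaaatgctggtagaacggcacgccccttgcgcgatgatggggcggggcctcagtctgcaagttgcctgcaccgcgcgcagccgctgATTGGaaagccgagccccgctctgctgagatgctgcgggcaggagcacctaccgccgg
Psmb5: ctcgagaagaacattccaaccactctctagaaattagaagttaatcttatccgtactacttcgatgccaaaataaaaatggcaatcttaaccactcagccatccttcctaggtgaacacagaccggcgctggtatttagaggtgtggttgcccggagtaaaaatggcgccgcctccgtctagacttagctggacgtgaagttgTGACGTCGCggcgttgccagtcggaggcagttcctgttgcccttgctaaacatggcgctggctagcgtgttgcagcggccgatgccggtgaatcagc

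Psmb8, whose product replaces Psmb5, was lowest in LYVE1+CX3CR1+ macrophages and highest in MHCII+CD11c+ macrophages. In control mice it was at 64.9, 48.9 and 52.5 CPM in LYVE1+CX3CR1+, 83.2, 142 and 74.6 CPM in MHCII+CD11c- and 124, 166 and 115 CPM in MHCII+CD11c+ libraries. Every LYVE1+CX3CR1+ control was under every control of the other subsets, while the MHCII+CD11c- and MHCII+CD11c+ controls overlapped. The difference passed the test between LYVE1+CX3CR1+ and MHCII+CD11c+ controls (log2 fold change -1.28, SE 0.27, adjusted p = 0.00130) and did not between LYVE1+CX3CR1+ and MHCII+CD11c- controls (log2 fold change -0.85, SE 0.26, adjusted p = 0.13). Leaving out any of the 6 libraries kept the first call, with adjusted p between 0.00245 and 0.0112. After IC, Psmb8 was at 87.5, 74.6 and 39.8 CPM, 174, 125 and 129.9 CPM and 185 and 165 CPM in the same order of subsets. These ranges overlapped those of the controls in each subset, and the averaged difference was 0.39 on the log2 scale (95% interval 0.066 to 0.71, adjusted p = 0.183).

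Psmb9, whose product replaces Psmb6, was the least abundant of the inducible genes per length in the mean of every group. Controls had 18.0, 20.5 and 12.1 CPM (LYVE1+CX3CR1+), 17.9, 45.4 and 33.4 CPM (MHCII+CD11c-) and 17.4, 38.1 and 21.2 CPM (MHCII+CD11c+), and libraries after IC had 15.8, 19.8 and 6.64 CPM, 39.2, 21.4 and 26.7 CPM and 41.1 and 29.3 CPM. All groups overlapped between control and IC, and no comparison of Psmb9 passed the test. The largest difference was between LYVE1+CX3CR1+ and MHCII+CD11c- controls (log2 fold change -0.94, SE 0.42, adjusted p = 0.412). Because the strand setting of the counting was not stated, reads where the annotated Psmb9 and Tap1 overlap cannot be assigned to either with certainty. Psmb10, whose product replaces Psmb7, differed little between the subsets of control mice, with 33.2, 36.5 and 38.8 CPM, 41.8, 50.5 and 34.8 CPM and 42.5, 39.8 and 44.6 CPM. After IC it was at 64.4, 57.3 and 41.1 CPM, 60.3, 52.7 and 64.1 CPM and 65.8 and 48.7 CPM. In each subset, every library after IC was above every control, although the averaged difference was just short of the threshold (log2 fold change 0.50, SE 0.14, adjusted p = 0.0564). Over the alternative analyses this adjusted p ran from 0.0135 to 0.271.

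Of the constitutive catalytic genes, Psmb5 had the same order of mean levels over the controls as Psmb8, whereas Psmb6 and Psmb7 had their lowest mean in MHCII+CD11c- controls. Psmb5, the subunit with chymotrypsin-like activity, was at 24.9, 12.2 and 21.9 CPM in LYVE1+CX3CR1+ controls and 13.9, 30.4 and 16.7 CPM in MHCII+CD11c- controls, against 32.5, 47.0 and 48.0 CPM in MHCII+CD11c+ controls. The MHCII+CD11c+ controls were above all others, which passed the test against LYVE1+CX3CR1+ controls (log2 fold change -1.10, SE 0.36, adjusted p = 0.0391) and not against MHCII+CD11c- controls (log2 fold change 1.05, SE 0.36, adjusted p = 0.0731). After IC, Psmb5 was at 41.5, 29.9 and 66.4 CPM, 31.0, 33.4 and 23.9 CPM and 38.8 and 29.9 CPM. All LYVE1+CX3CR1+ libraries after IC were above their controls, with log2 fold change 1.21, SE 0.36, adjusted p = 0.109, and over the alternative analyses this p ran from 0.0275 to 0.348. Psmb6, the subunit with caspase-like activity, was at 52.4, 43.2 and 44.7 CPM, 33.3, 55.3 and 17.1 CPM and 73.4, 81.4 and 59.0 CPM in the controls and at 67.9, 82.1 and 27.4 CPM, 58.3, 56.4 and 82.0 CPM and 93.4 and 82.5 CPM after IC. Psmb7, the subunit with trypsin-like activity, was at 31.0, 44.9 and 32.2 CPM, 19.2, 37.3 and 21.7 CPM and 49.8, 49.6 and 35.9 CPM, and then at 41.8, 48.2 and 12.9 CPM, 31.5, 48.4 and 36.6 CPM and 53.5 and 63.6 CPM. The third LYVE1+CX3CR1+ library after IC was the lowest of all 17 for Psmb7, Psmb8 and Psmb9, and the highest for Psmb5. It also had the smallest total of counts. No difference of Psmb6 or Psmb7 passed the test in any comparison.

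**Figure D1:**
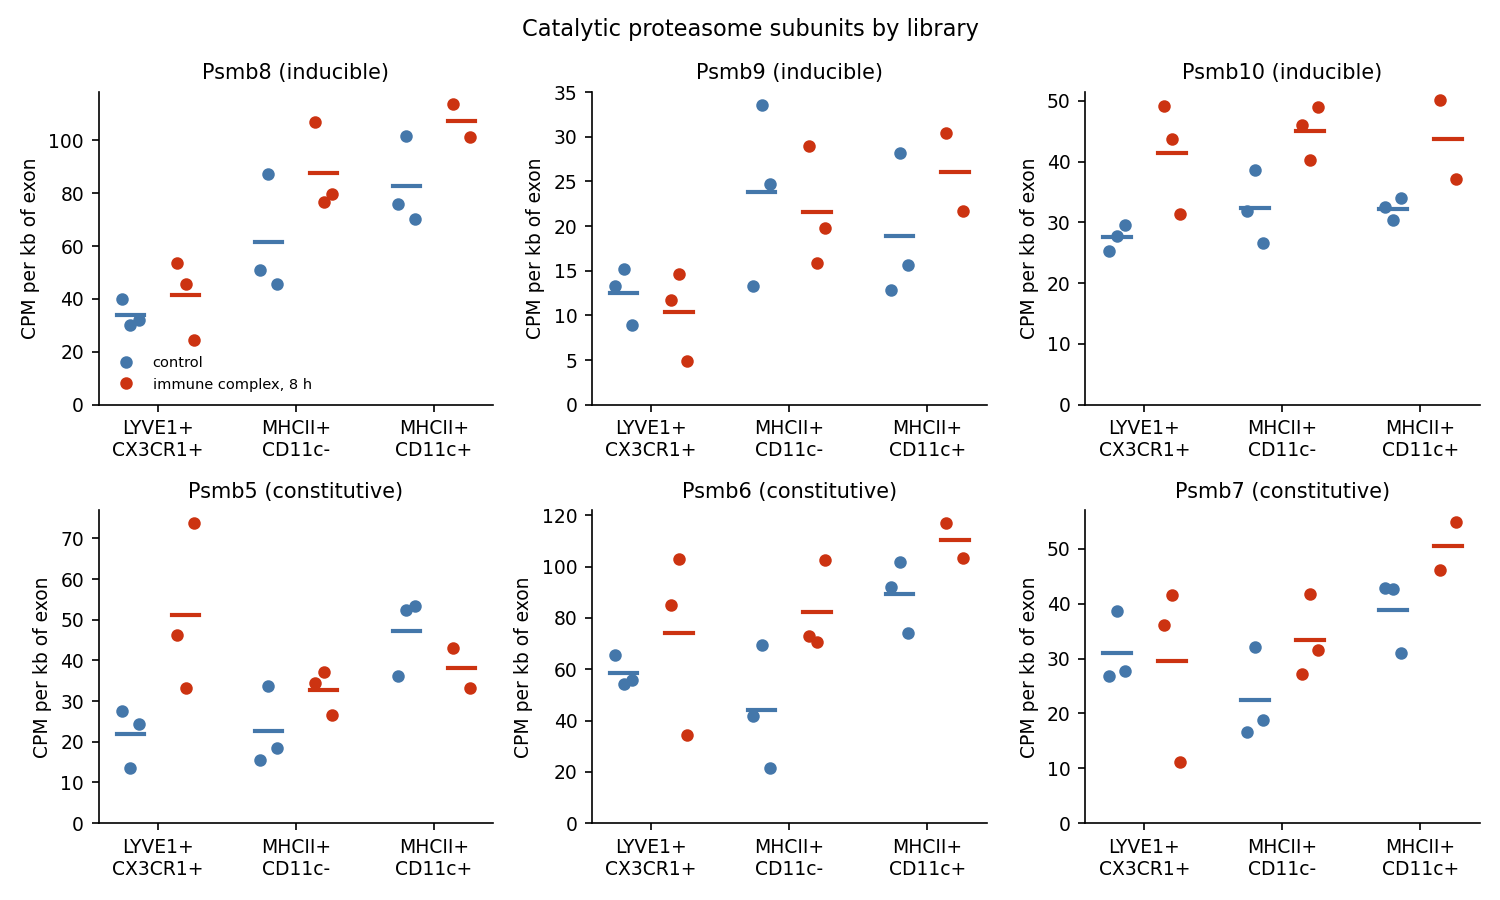
Level of the 6 catalytic subunit genes in CPM per kb of exon (y axis, from 0) in the 3 macrophage subsets (x axis). Points are libraries, horizontal bars are group means, blue is control and red is 8 h after immune complex. Psmb8 had group means of 34.0, 61.4 and 82.7 CPM per kb in the controls of the 3 subsets from left to right, and in each subset the red points of Psmb10 lie above the blue ones.

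When inducible genes were set against constitutive ones within each library, MHCII+CD11c- macrophages of control mice had the highest ratio. The summed level per length of Psmb8, Psmb9 and Psmb10 divided by that of Psmb5, Psmb6 and Psmb7 was 0.653, 0.687 and 0.655 in the LYVE1+CX3CR1+ controls (mean 0.665 ± 0.0189 SD, n = 3), 1.31, 1.18 and 1.65 in the MHCII+CD11c- controls (1.38 ± 0.245, n = 3) and 0.710, 0.814 and 0.758 in the MHCII+CD11c+ controls (0.761 ± 0.0520, n = 3). All 3 MHCII+CD11c- controls were above all 6 others. In absolute terms the MHCII+CD11c- controls did not have the most Psmb8, at 61.4 ± 22.6 CPM per kb against 82.7 ± 16.7 in MHCII+CD11c+ controls (SD, n = 3). Their means of Psmb9 and Psmb10 were the highest of the controls, although the ranges overlapped. These were 23.9 and 32.32 CPM per kb, against 18.9 and 32.27 in MHCII+CD11c+ and 12.5 and 27.6 in LYVE1+CX3CR1+ controls. The MHCII+CD11c- controls also had the lowest mean of Psmb6 and Psmb7, at 44.1 ± 24.1 and 22.5 ± 8.44 CPM per kb, against 89.3 ± 14.2 and 38.9 ± 6.85 in MHCII+CD11c+ controls. Psmb5 was at 21.9 ± 7.40, 22.6 ± 9.83 and 47.3 ± 9.63 CPM per kb in the LYVE1+CX3CR1+, MHCII+CD11c- and MHCII+CD11c+ controls. B-cell markers were also highest in the MHCII+CD11c- controls, with 9.54 to 25.2 CPM for the sum of 3 genes against at most 6.05 CPM in the other controls, and their part in the ratio was not tested.

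After IC the ratio was 0.684, 0.586 and 0.509 in LYVE1+CX3CR1+ libraries (0.593 ± 0.0878, n = 3), 1.35, 0.887 and 0.922 in MHCII+CD11c- libraries (1.05 ± 0.259, n = 3) and 0.943 and 0.836 in MHCII+CD11c+ libraries (0.890 ± 0.0752, n = 2). The ranges before and after IC overlapped in LYVE1+CX3CR1+ and MHCII+CD11c- macrophages, and both MHCII+CD11c+ libraries after IC were above the 3 controls. By pairs, Psmb8 to Psmb5 was 1.66 ± 0.488, 2.79 ± 0.460 and 1.79 ± 0.415 in the LYVE1+CX3CR1+, MHCII+CD11c- and MHCII+CD11c+ controls, so there was more Psmb8 than Psmb5 transcript per length in each. After IC this ratio was 0.957 ± 0.553, 2.72 ± 0.572 and 2.84 ± 0.287. In LYVE1+CX3CR1+ macrophages its values after IC, 1.16, 1.38 and 0.331, overlapped those of the controls (1.44, 2.22 and 1.32). Only the third of these libraries after IC was under 1. Psmb9 to Psmb6 stayed under 1 in 16 of 17 libraries, with control means of 0.214 ± 0.0609, 0.653 ± 0.444 and 0.209 ± 0.0680. Psmb10 to Psmb7 was 0.911 ± 0.176, 1.51 ± 0.374 and 0.855 ± 0.213 in the controls. After IC, Psmb9 to Psmb6 was 0.141 ± 0.00313, 0.271 ± 0.110 and 0.235 ± 0.0353, and all 3 LYVE1+CX3CR1+ libraries (0.137, 0.142 and 0.143) were below their controls (0.202, 0.28 and 0.160). Psmb10 to Psmb7 was 1.75 ± 0.947, 1.40 ± 0.387 and 0.884 ± 0.290 after IC, so that in LYVE1+CX3CR1+ macrophages its mean was higher than in the controls while the means of the other pairs were lower. The LYVE1+CX3CR1+ values after IC, 1.36, 1.05 and 2.83, overlapped those of the controls. Ratios were not tested, and they describe transcripts, not assembled particles.

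**Figure D2:**
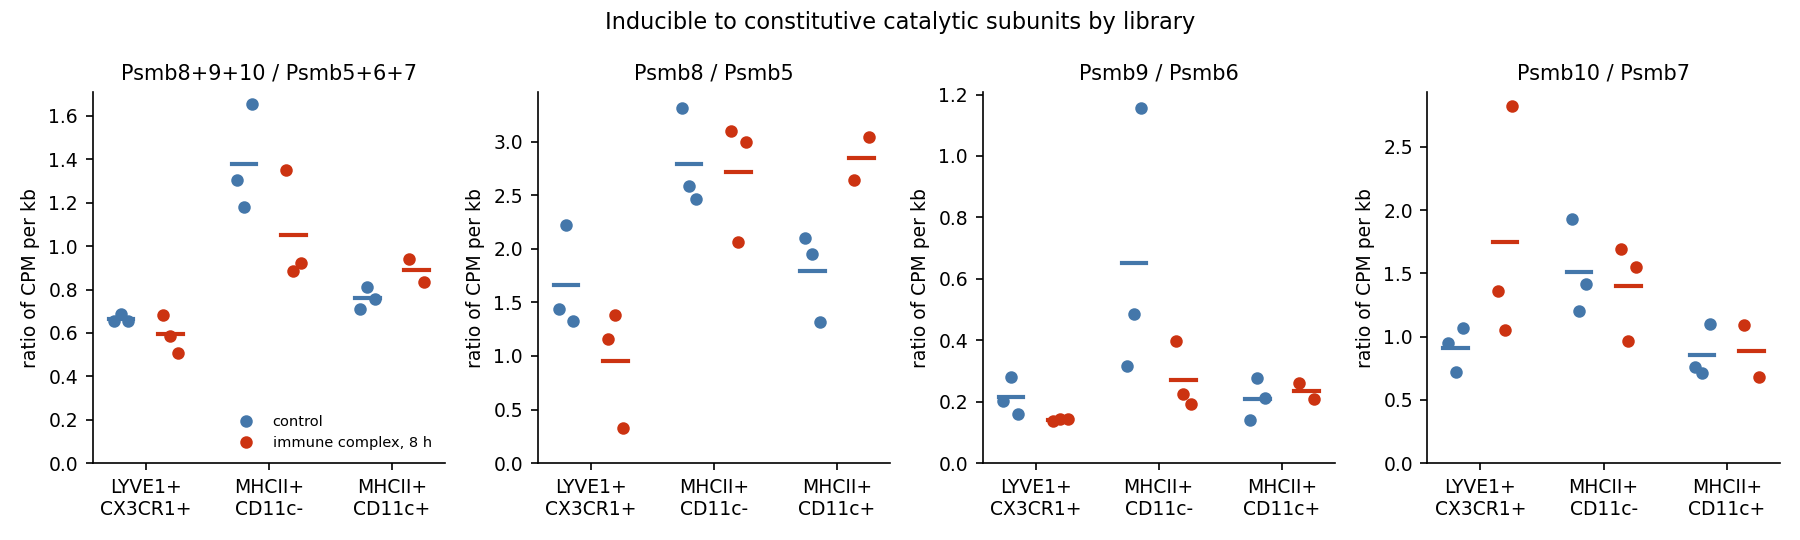
Ratio of inducible to constitutive catalytic subunit transcripts, each in CPM per kb of exon (y axes, from 0), in the 3 macrophage subsets (x axis). Points are libraries, bars are group means, blue is control and red is 8 h after immune complex. The left panel holds the summed ratio, in which the 3 MHCII+CD11c- controls lie between 1.18 and 1.65 and the other 6 controls between 0.653 and 0.814.

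When the 3 subsets were averaged with equal weight, 8 of 52 members tested were called, all of them higher after IC, against 3.35% of all genes called and 1.7% called higher. Of these, 6 encode the regulatory particle (Psmc1, Psmc4, Psmc5, Psmd1, Psmd4 and Psmd7) and the others are the α subunit genes Psma1 and Psma3. The 3 inducible catalytic genes were not called, but their median log2 fold change of 0.39 was close to that of the regulatory particle, with 0.39 for Psmb8, 0.022 for Psmb9 and 0.50 for Psmb10. The median log2 fold change was 0.30 for the members and -0.070 for all genes. For the 17 genes of the regulatory particle, 17 log2 fold changes were above 0 with a median of 0.40, the 15 constitutive genes of the core had a median of 0.29 with 2 called, the 4 activators 0.35 with all 4 above 0, and the 8 assembly factors -0.039. Here and below, the 15 genes counted as constitutive core include Psma8 of the testis proteasome, whose level was close to 0.

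Psmd4 encodes a receptor for ubiquitin chains, Psmc1 an ATPase of the unfolding ring and Psmd1 the largest scaffold subunit of the base. Their promoter windows are shown because these were the 3 genes called with the smallest p. The Psmd4 window (chr3:95042565-95042864, minus strand) held 1 match of the interferon-stimulated response element and 3 CCAAT boxes, the Psmc1 window (chr12:100109952-100110251, plus strand) held 1 CCAAT box, and the Psmd1 window (chr1:86064369-86064668, plus strand) held none of the 4 motifs. Over 48 windows of 44 members, 16 held CCAAT, 6 the antioxidant response element, 5 the interferon-stimulated response element and 3 the gamma-activated sequence. In the same order, these motifs were in 37.4, 12.4, 3.44 and 8.30% of all windows.
Psmd4: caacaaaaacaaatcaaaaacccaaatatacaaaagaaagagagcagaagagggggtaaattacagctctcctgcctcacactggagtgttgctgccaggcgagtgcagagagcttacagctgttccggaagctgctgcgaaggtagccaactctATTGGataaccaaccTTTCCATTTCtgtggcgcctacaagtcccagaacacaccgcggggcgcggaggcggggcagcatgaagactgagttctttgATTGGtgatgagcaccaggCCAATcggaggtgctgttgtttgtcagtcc
Psmc1: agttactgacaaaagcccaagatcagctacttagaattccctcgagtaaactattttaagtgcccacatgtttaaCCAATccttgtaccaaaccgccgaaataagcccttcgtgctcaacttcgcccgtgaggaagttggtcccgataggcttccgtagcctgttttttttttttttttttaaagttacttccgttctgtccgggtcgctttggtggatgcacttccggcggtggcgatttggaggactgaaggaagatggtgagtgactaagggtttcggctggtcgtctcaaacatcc
Psmd1: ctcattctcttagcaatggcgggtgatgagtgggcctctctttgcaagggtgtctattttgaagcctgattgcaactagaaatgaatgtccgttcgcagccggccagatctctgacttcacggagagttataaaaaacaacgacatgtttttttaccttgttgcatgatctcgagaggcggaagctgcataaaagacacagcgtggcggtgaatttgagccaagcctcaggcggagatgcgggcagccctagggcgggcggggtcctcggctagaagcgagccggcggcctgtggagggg

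Psmd4 was at 102, 118 and 86.7 CPM in LYVE1+CX3CR1+ controls and 173, 182 and 159 CPM after IC, 112, 91.4 and 83.9 CPM and 160.3, 135 and 181 CPM in MHCII+CD11c- macrophages, and 131, 117 and 113 CPM and 181 and 188 CPM in MHCII+CD11c+ macrophages. In all 3 subsets every library after IC was above every control, by 1.68-fold, 1.66-fold and 1.53-fold, and averaged over the subsets it rose (log2 fold change 0.69, SE 0.11, adjusted p = 0.000448). Psmc1 was at 81.6, 90.5 and 76.9 CPM in LYVE1+CX3CR1+ controls and 136, 103 and 109 CPM after IC, 64.2, 77.0 and 44.8 CPM and 128, 136 and 205 CPM in MHCII+CD11c- macrophages, and 99.3, 85.6 and 57.5 CPM and 131 and 110.3 CPM in MHCII+CD11c+ macrophages. It was 1.40-fold, 2.51-fold and 1.49-fold higher after IC in the 3 subsets, and the groups did not overlap in any of them (averaged log2 fold change 0.79, SE 0.14, adjusted p = 0.00166). Psmd1 was at 93.5, 131 and 97.3 CPM in LYVE1+CX3CR1+ controls and 149, 137 and 149 CPM after IC, 65.0, 87.5 and 55.8 CPM and 114, 137 and 155 CPM in MHCII+CD11c- macrophages, and 115, 96.8 and 73.4 CPM and 144 and 152 CPM in MHCII+CD11c+ macrophages. Its groups were also apart in each subset, narrowly in LYVE1+CX3CR1+ macrophages (averaged log2 fold change 0.68, SE 0.12, adjusted p = 0.00245). These 3 averaged calls held in all 25 alternative analyses, the 17 that left out a library included.

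Psmc5, another ATPase, was at 51.7, 40.5 and 45.4 CPM in LYVE1+CX3CR1+ controls and 93.0, 81.8 and 60.6 CPM after IC, 41.2, 41.7 and 32.8 CPM and 56.1, 50.9 and 54.8 CPM in MHCII+CD11c- macrophages, and 50.8, 57.0 and 39.3 CPM and 63.5 and 72.2 CPM in MHCII+CD11c+ macrophages, with no overlap in any subset (averaged log2 fold change 0.57, SE 0.14, adjusted p = 0.0204). Its call was lost without either of the MHCII+CD11c+ libraries after IC, with adjusted p = 0.0635 and 0.116. Psmd7, a scaffold of the lid, was at 65.2, 75.4 and 60.6 CPM in LYVE1+CX3CR1+ controls and 76.4, 95.4 and 108 CPM after IC, 35.6, 51.6 and 33.8 CPM and 71.8, 65.9 and 69.1 CPM in MHCII+CD11c- macrophages, and 69.3, 93.6 and 65.4 CPM and 92.0 and 85.9 CPM in MHCII+CD11c+ macrophages, and the ranges overlapped in MHCII+CD11c+ macrophages only (averaged log2 fold change 0.49, SE 0.13, adjusted p = 0.0384). Psmc4, an ATPase, was at 51.3, 43.0 and 55.8 CPM in LYVE1+CX3CR1+ controls and 103, 57.6 and 58.1 CPM after IC, 43.3, 55.7 and 43.1 CPM and 83.1, 69.8 and 71.8 CPM in MHCII+CD11c- macrophages, and 65.1, 85.1 and 69.2 CPM and 84.9 and 96.7 CPM in MHCII+CD11c+ macrophages (averaged log2 fold change 0.50, SE 0.14, adjusted p = 0.0482). Psma1 was at 45.0, 34.9 and 40.5 CPM in LYVE1+CX3CR1+ controls and 73.4, 70.2 and 55.2 CPM after IC, 28.2, 42.1 and 28.8 CPM and 54.3, 51.7 and 75.7 CPM in MHCII+CD11c- macrophages, and 50.6, 78.0 and 83.2 CPM and 68.5 and 78.2 CPM in MHCII+CD11c+ macrophages (averaged log2 fold change 0.55, SE 0.15, adjusted p = 0.0418). Psma3 was at 78.1, 65.7 and 50.1 CPM in LYVE1+CX3CR1+ controls and 98.0, 85.9 and 98.7 CPM after IC, 46.3, 60.6 and 42.5 CPM and 70.5, 94.2 and 110.3 CPM in MHCII+CD11c- macrophages, and 100.4, 105 and 112 CPM and 115 and 91.6 CPM in MHCII+CD11c+ macrophages (averaged log2 fold change 0.46, SE 0.13, adjusted p = 0.0491). For Psma1 and Psma3 the ranges of control and IC were apart in LYVE1+CX3CR1+ and MHCII+CD11c- macrophages and overlapped in MHCII+CD11c+ macrophages. The calls of Psmd7, Psmc4, Psma1 and Psma3 were lost in 11, 13, 10 and 12 of the 17 analyses that left out a library, with the sign kept. The number of members called fell to 3 without either of the MHCII+CD11c+ libraries after IC. It was 4 or 5 without any of the LYVE1+CX3CR1+ controls, the first or the third control of MHCII+CD11c- or MHCII+CD11c+ macrophages, the first LYVE1+CX3CR1+ library after IC or the third MHCII+CD11c- library after IC.

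Libraries could also be compared without a model. In all 3 subsets at once, every library after IC was above every control for 6 of 52 members, namely Psmb10, Psmc1, Psmc5, Psmd1, Psmd2 and Psmd4, against 0.727% of all genes tested. Psmb10 is the only inducible catalytic gene in this group of 6. By subset, 14 members (LYVE1+CX3CR1+), 21 members (MHCII+CD11c-) and 14 members (MHCII+CD11c+) had all libraries after IC above all controls, against 4.95%, 8.72% and 14.1% of all genes. The log2 fold change was above 0 in all 3 subsets for 23 of 52 members, against 16% of all genes.

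**Figure D3:**
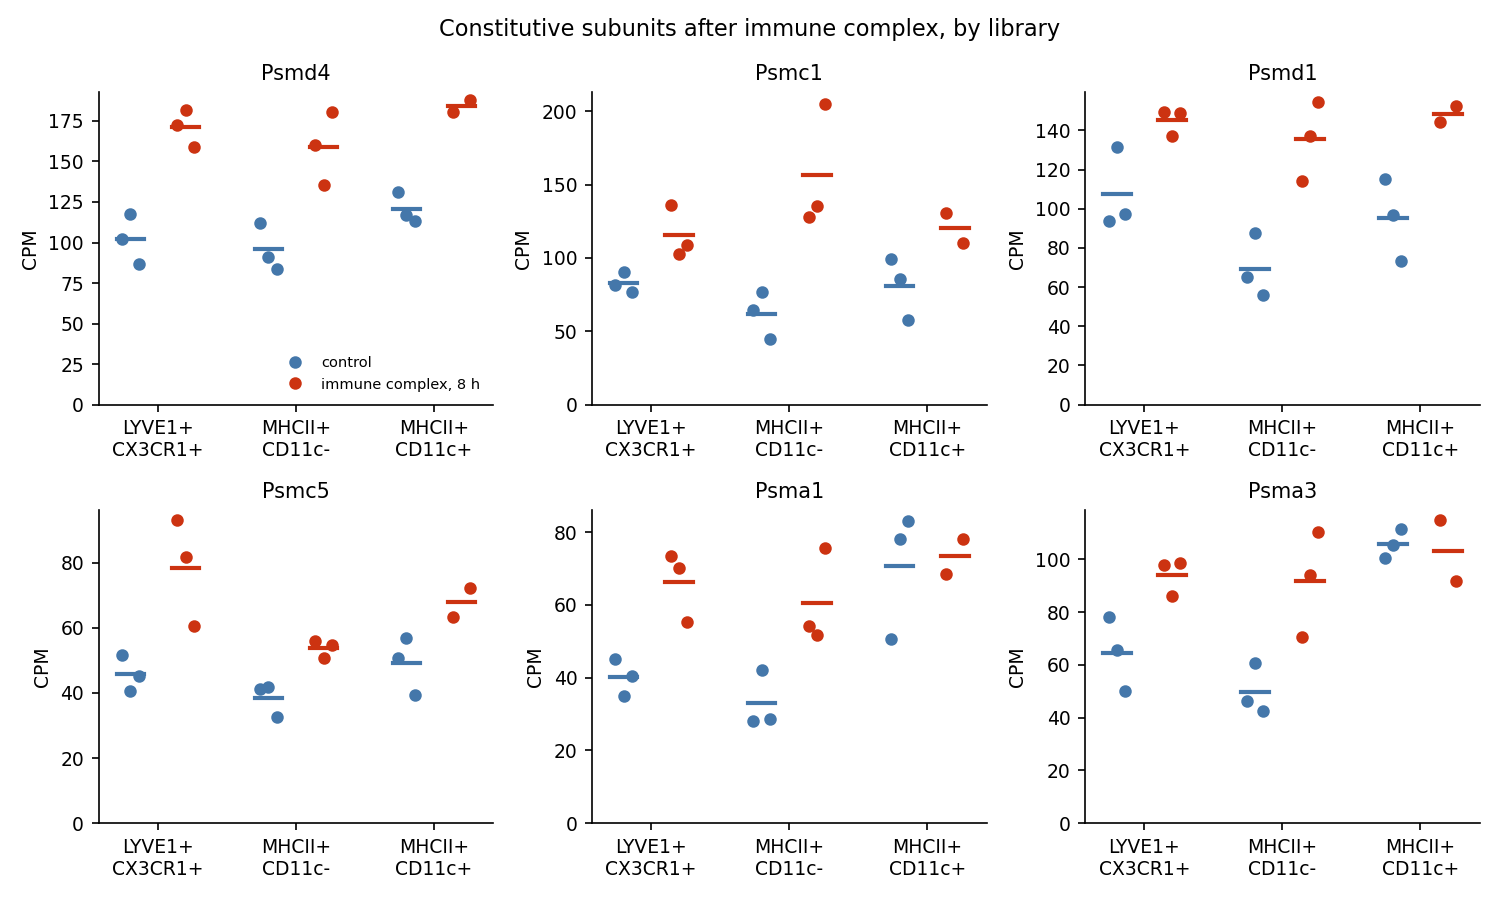
Levels in CPM (y axes, from 0) of 6 of the 8 members called after immune complex in the average over subsets, by macrophage subset (x axis). Points are libraries, bars are group means, blue is control and red is 8 h after immune complex. For Psmd4, Psmc1, Psmd1 and Psmc5 the red points lie above the blue points in every subset, and for Psma1 and Psma3 they overlap in MHCII+CD11c+ macrophages.

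Within single subsets few members passed the test. In LYVE1+CX3CR1+ macrophages, 1 of 52 members was called after IC, namely Psmd4 (log2 fold change 0.75, SE 0.18, adjusted p = 0.0453), against 0.963% of all genes called and 0.151% called higher. Each of the 6 analyses that left out one of these libraries lost this call, with adjusted p between 0.0593 (without the third IC library) and 0.184 (without the third control). The members' median was 0.21 against -0.14 for all genes, and 37 of 52 were above 0, against 40.3% of all genes. The 6 base ATPases had log2 fold changes between 0.20 and 0.78. The 8 assembly factors had a median of -0.27, below 0 under each scaling tried, although 4 of the 8 were above 0. Psmg2, a chaperone of the α ring, had 38, 33 and 39 counts in the controls and 6, 1 and 0 counts after IC (log2 fold change -3.14, SE 0.85, adjusted p = 0.0717). Psmd10, a chaperone of the base, had 93, 44 and 75 counts and 13, 11 and 7 counts (log2 fold change -1.85, SE 0.56, adjusted p = 0.111). Neither was called, their levels did not overlap between the groups, and these are also the libraries in which fewer genes were detected. All libraries after IC were below all controls for 4 of 52 members and for 2549 of 15272 genes tested. Psma8 had 6, 5 and 6 counts in the controls and 0 in each library after IC. The markers of the LYVE1 side were at 3847 to 4735 CPM in the controls and 5904 to 7015 CPM after IC, the MHCII markers at 102 to 156 CPM and 19.8 to 49.2 CPM, and the dendritic cell markers at 11.3 to 14.9 CPM and 6.61 to 10.8 CPM. These 3 sums did not overlap between the groups, and their part in the result was not tested.

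In MHCII+CD11c- macrophages, 2 of 52 members were called, both higher, against 0.701% of all genes called and 0.543% called higher. Psmc1 rose 2.51-fold (log2 fold change 1.33, SE 0.24, adjusted p = 0.00570) and Psmd1 rose 1.94-fold (log2 fold change 0.96, SE 0.21, adjusted p = 0.0264). The call of Psmc1 was lost without the third control (adjusted p = 0.0585) or the third IC library (adjusted p = 0.0838). The call of Psmd1 was lost without the first control, the third control, the second IC library or the third IC library, with adjusted p = 0.138, 0.210, 0.0954 and 0.20, respectively. The members' median was 0.50 against -0.030 for all genes, and 45 of 52 were above 0, against 47.8% of all genes. An unadjusted p under 0.05 was found for 18 of 52 members, all higher after IC, and for 1526 of 15272 genes in either direction. The regulatory particle (median 0.63 over 17 genes), the constitutive core (0.53 over 15) and the activators (0.62 over 4) had similar medians. The PA28 genes Psme1 and Psme2 were at 119, 143 and 77.2 CPM and 37.1, 72.6 and 47.1 CPM in the controls and 190.2, 162 and 185 CPM and 104, 76.4 and 75.7 CPM after IC. Both were apart between the groups, and neither was called (adjusted p = 0.259 and 0.298). In the same libraries the 4 MHCII markers were at 16325 to 17607 CPM in the controls and 11130 to 11574 CPM after IC, with no overlap, and the 6 markers of the LYVE1 side at 1021 to 1903 CPM and 1844 to 3367 CPM, which overlapped. Their part in the response was not tested.

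In MHCII+CD11c+ macrophages, with 2 libraries after IC, none of 52 members was called by edgeR, by DESeq2 or by limma with sample weights, against 0.216% of all genes. At an unadjusted p under 0.05 there were 3 of 52, all higher, namely Psmd4, Psmd1 and Psmc1. This is near the share of all genes, 795 of 15272 in either direction. The members' median was 0.19 against 0.015 for all genes. Here the 17 genes of the regulatory particle were all above 0 (median 0.33, from 0.073 to 0.64). The 15 genes counted as constitutive core had a median near 0 (-0.041), with 10 below 0 and 5 above. The highest of them was the testis gene Psma8 (0.77), which had few counts. The difference between the core and the regulatory particle was not tested. With the scaling of DESeq2, with that of RLE or at equal depth, 16 of the 17 genes of the regulatory particle were above 0. The 3 inducible catalytic genes were between 0.38 and 0.46. Marker sums also moved between these groups without overlap. The 5 neutrophil markers were at 71.5 to 249 CPM in the controls and 25.0 to 29.5 CPM after IC, the 5 dendritic cell markers at 83.0 to 147 CPM and 156 to 201 CPM, the 6 macrophage markers at 2570 to 3338 CPM and 3736 to 4502 CPM, and the 4 endothelial markers at 3.03 to 15.0 CPM and 25.3 to 25.6 CPM. Their part in the result was not tested.

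**Figure D4:**
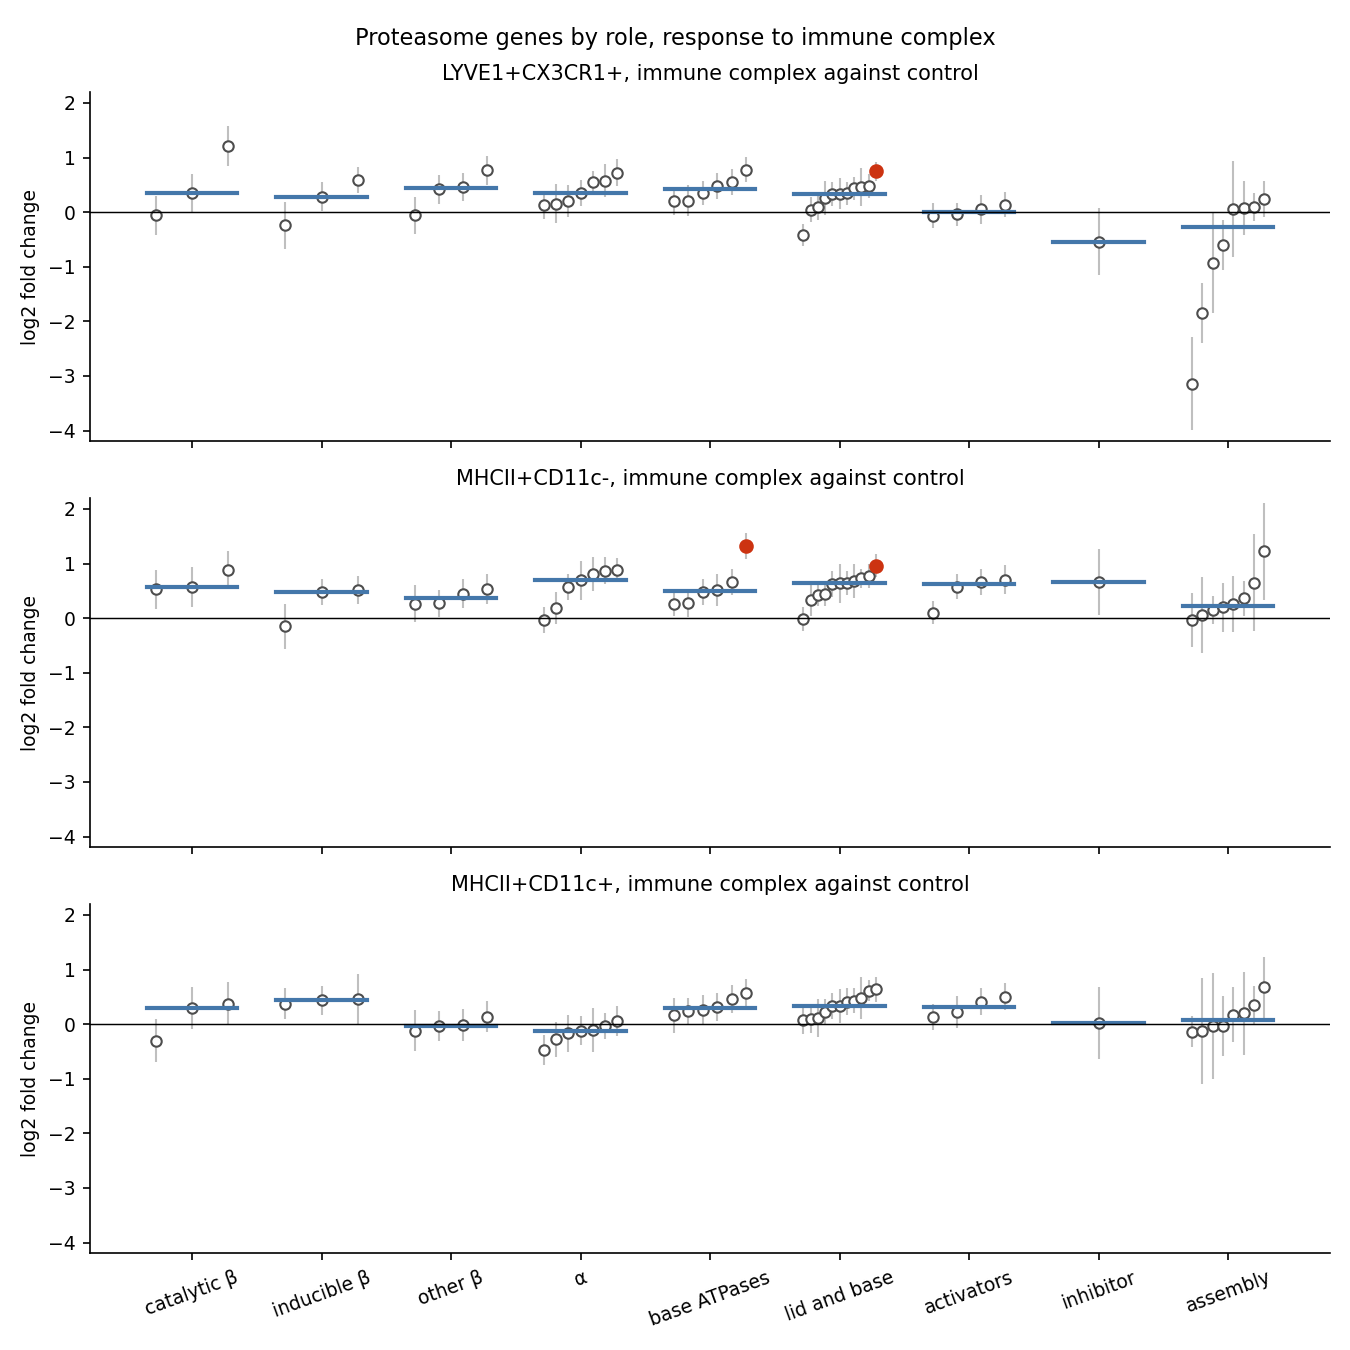
Log2 fold change after immune complex against control (y axis) of the members grouped by role (x axis), with 1 panel per macrophage subset. Circles are genes with their standard error, red circles were called at an adjusted p under 0.05, blue bars are medians of the genes drawn, and Psma8, at 0 counts in a group, and the 4 symbols outside the complex are not drawn. Red circles are Psmd4 in the top panel and Psmc1 and Psmd1 in the middle panel, and the low assembly factors of the top panel are Psmg2 and Psmd10.

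Whether the subsets responded differently was tested with interaction terms. No member was called between the responses of LYVE1+CX3CR1+ and MHCII+CD11c-, of LYVE1+CX3CR1+ and MHCII+CD11c+, or of MHCII+CD11c+ and MHCII+CD11c- macrophages, in which 0.0262%, 0.0327% and 0% of all genes were called by edgeR. DESeq2 called 0 members in each as well. An unadjusted p under 0.05 was found for 5, 5 and 4 of 52 members, beside 1152, 1225 and 496 of 15272 genes. The response of Psmb5 exceeded, in LYVE1+CX3CR1+ macrophages, that of MHCII+CD11c+ macrophages by 1.52 on the log2 scale (95% interval 0.40 to 2.63, adjusted p = 0.425), and that of Psma3 differed by -0.91 between MHCII+CD11c+ and MHCII+CD11c- macrophages (-1.58 to -0.23, adjusted p = 1.0). For Psmb8 the 3 differences of response had intervals of -1.0 to 0.54, -0.91 to 0.72 and -0.94 to 0.67.

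Among control mice, MHCII+CD11c+ macrophages had more proteasome transcript than MHCII+CD11c- macrophages. Of 52 members, 8 were called and all were higher in MHCII+CD11c+ macrophages, against 8.66% of all genes called and 3.67% called higher. The members' median log2 fold change was 0.48, that of all genes -0.034, and 47 of 52 were above 0. The called genes were 5 of the α ring (Psma1, Psma2, Psma3, Psma5 and Psma7), the β subunit genes Psmb1 and Psmb3, and Psmd7 of the lid. The constitutive core had a median of 0.92 over 15 genes and the regulatory particle 0.49 over 17. For the inducible catalytic genes the differences were 0.43 for Psmb8, -0.33 for Psmb9 and -0.0076 for Psmb10 (95% intervals -0.11 to 0.97, -1.19 to 0.53 and -0.51 to 0.49), beside 1.05, 1.0 and 0.79 for Psmb5, Psmb6 and Psmb7, none of which was called.

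Psma3 was at 100.4, 105 and 112 CPM in MHCII+CD11c+ and 46.3, 60.6 and 42.5 CPM in MHCII+CD11c- controls (log2 fold change 1.08, SE 0.22, adjusted p = 0.00213). Psma1 was at 50.6, 78.0 and 83.2 CPM in MHCII+CD11c+ and 28.2, 42.1 and 28.8 CPM in MHCII+CD11c- controls (log2 fold change 1.09, SE 0.25, adjusted p = 0.00687), and Psmb3 at 52.1, 48.1 and 57.5 CPM in MHCII+CD11c+ and 21.5, 25.3 and 20.7 CPM in MHCII+CD11c- controls (log2 fold change 1.22, SE 0.27, adjusted p = 0.00472). These 3 genes kept their calls without any 1 of the 6 libraries. Psmd7 was at 69.3, 93.6 and 65.4 CPM in MHCII+CD11c+ and 35.6, 51.6 and 33.8 CPM in MHCII+CD11c- controls (log2 fold change 0.91, SE 0.22, adjusted p = 0.00920), Psma7 at 129, 233 and 158 CPM in MHCII+CD11c+ and 85.1, 113 and 76.9 CPM in MHCII+CD11c- controls (log2 fold change 0.92, SE 0.24, adjusted p = 0.0166), and Psma5 at 51.0, 91.0 and 68.5 CPM in MHCII+CD11c+ and 33.3, 47.2 and 19.1 CPM in MHCII+CD11c- controls (log2 fold change 1.07, SE 0.30, adjusted p = 0.0267). In these genes too all MHCII+CD11c+ controls were above all MHCII+CD11c- controls. Psma2 was at 62.7, 89.5 and 65.4 CPM in MHCII+CD11c+ and 35.4, 53.2 and 39.5 CPM in MHCII+CD11c- controls (log2 fold change 0.76, SE 0.24, adjusted p = 0.0447). Psmb1 was at 127, 162 and 82.8 CPM in MHCII+CD11c+ and 41.6, 88.9 and 68.2 CPM in MHCII+CD11c- controls (log2 fold change 0.90, SE 0.25, adjusted p = 0.0234) and was the called gene whose ranges overlapped. With surrogate variables in the model, 2 members were called, and without the third MHCII+CD11c- control or the second MHCII+CD11c+ control 3 were, and without the first MHCII+CD11c- control 4 were. The lists of macrophage, dendritic cell and LYVE1 side markers given above differ between these groups, and their part in the result was not tested.

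Proteasome transcripts were likewise lower in LYVE1+CX3CR1+ macrophages of control mice when these were set against MHCII+CD11c+ macrophages. Of 52 members, 12 were called, all lower in LYVE1+CX3CR1+ macrophages, in a comparison in which 15.2% of all genes were called and 7.4% were called lower. The median log2 fold change was -0.41 for the members and 0.052 for all genes. This comparison and the previous one share the MHCII+CD11c+ controls. The called genes were Psma1, Psma3, Psma4, Psma5 and Psma7 of the α ring, Psmb1, Psmb3 and Psmb5 of the β ring, the inducible Psmb8, the ATPase Psmc3, and the activators Psme1 and Psme2. No gene of the lid was called. The 15 constitutive core genes had a median of -0.81 and the 17 of the regulatory particle -0.29.

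Beside Psmb8, described above, Psma7 was at 76.5, 65.4 and 81.2 CPM in LYVE1+CX3CR1+ and 129, 233 and 158 CPM in MHCII+CD11c+ controls (log2 fold change -1.22, SE 0.24, adjusted p = 0.000867). Psmb3 was at 29.0, 23.8 and 23.4 CPM in LYVE1+CX3CR1+ and 52.1, 48.1 and 57.5 CPM in MHCII+CD11c+ controls (log2 fold change -1.05, SE 0.27, adjusted p = 0.00808). Psma7, Psmb3 and Psmb8 kept their calls without any 1 of the 6 libraries. Psmb1 was at 73.1, 60.8 and 67.3 CPM in LYVE1+CX3CR1+ and 127, 162 and 82.8 CPM in MHCII+CD11c+ controls (log2 fold change -0.89, SE 0.25, adjusted p = 0.0162). Psma4 was at 72.3, 79.2 and 61.3 CPM in LYVE1+CX3CR1+ and 174, 179 and 196 CPM in MHCII+CD11c+ controls (log2 fold change -1.37, SE 0.37, adjusted p = 0.0166), the largest difference among the members called. Psma3 was at 78.1, 65.7 and 50.1 CPM in LYVE1+CX3CR1+ and 100.4, 105 and 112 CPM in MHCII+CD11c+ controls (log2 fold change -0.71, SE 0.22, adjusted p = 0.0265), Psma1 at 45.0, 34.9 and 40.5 CPM in LYVE1+CX3CR1+ and 50.6, 78.0 and 83.2 CPM in MHCII+CD11c+ controls (log2 fold change -0.81, SE 0.25, adjusted p = 0.0291), and Psme1 at 87.3, 123 and 73.1 CPM in LYVE1+CX3CR1+ and 152, 149 and 165 CPM in MHCII+CD11c+ controls (log2 fold change -0.72, SE 0.23, adjusted p = 0.0355). In all 12 called genes each LYVE1+CX3CR1+ control was below each MHCII+CD11c+ control. The remaining called genes, Psma5, Psmb5, Psmc3 and Psme2, had log2 fold changes between -1.10 and -0.67 and adjusted p between 0.0365 and 0.0440. The count fell to 4 without the third LYVE1+CX3CR1+ control, to 5 without the second, and to 6 without the second or the third MHCII+CD11c+ control.

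Between LYVE1+CX3CR1+ and MHCII+CD11c- macrophages of control mice, no member was called by edgeR, 1 was by DESeq2 and 2 by limma with sample weights, while 1.56% of all genes were called. At an unadjusted p under 0.05 there were 4 of 52, a smaller share than the 1564 of 15272 genes. Of these members, Psmd7 (0.73) and Psmd1 (0.62) were higher and Psmb8 (-0.85) and Psmb9 (-0.94) lower in LYVE1+CX3CR1+ macrophages. The members' median was 0.072. The 3 inducible catalytic genes had a median of -0.85, the constitutive 3 a median of 0.40, and 14 of 17 genes of the regulatory particle were above 0.

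**Figure D5:**
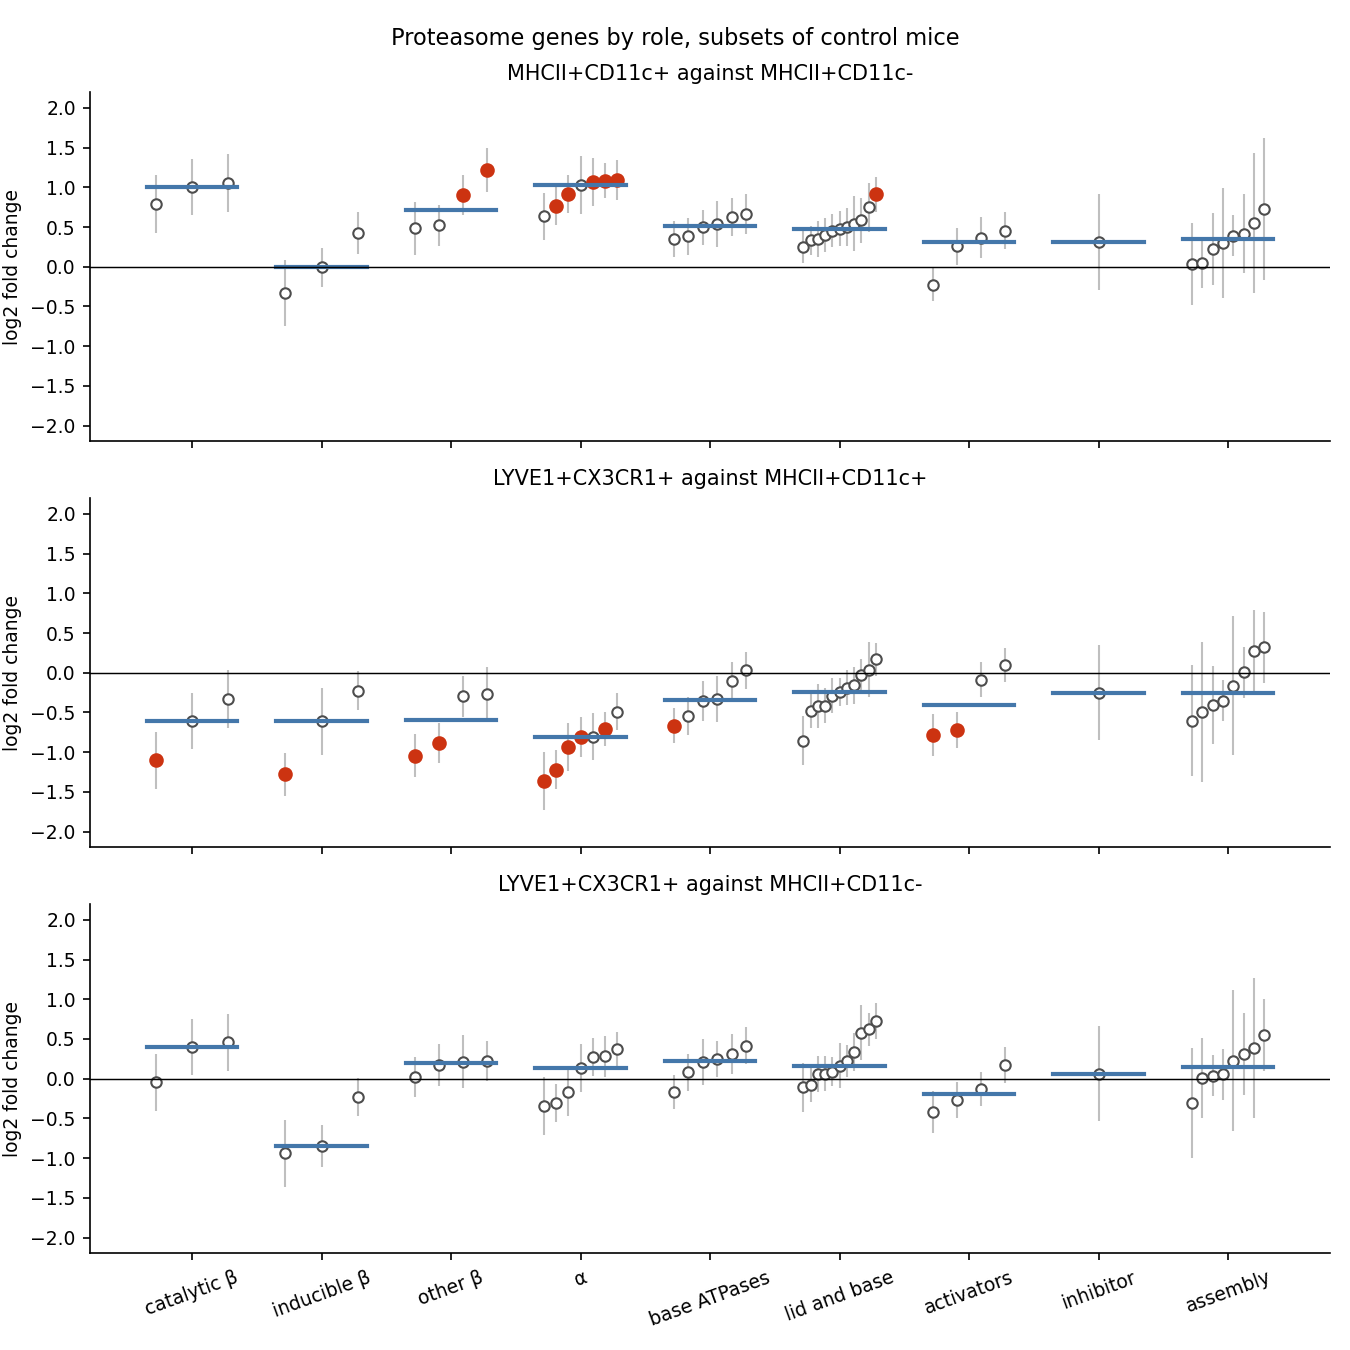
Log2 fold change between macrophage subsets of control mice (y axis) of the members grouped by role (x axis), with 1 panel per pair of subsets. Circles are genes with their standard error, red circles were called at an adjusted p under 0.05, blue bars are medians of the genes drawn, and Psma8 and the 4 symbols outside the complex are not drawn. The α and β genes hold 7 of the 8 red circles of the top panel, and the inducible β genes lie between -0.33 and 0.43 there and below 0 in the middle and bottom panels.

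Activators, assembly factors and the further symbols completed the set. Psme1 was at 87.3, 123 and 73.1 CPM in LYVE1+CX3CR1+ controls and 105, 102 and 62.2 CPM after IC, and at 152, 149 and 165 CPM and 235 and 205 CPM in MHCII+CD11c+ macrophages, where both libraries after IC were above the controls (adjusted p = 0.994). Psme2 was at 43.6, 38.4 and 35.6 CPM and 37.2, 45.0 and 39.8 CPM in LYVE1+CX3CR1+ macrophages and at 54.9, 80.2 and 67.3 CPM and 96.8 and 60.7 CPM in MHCII+CD11c+ macrophages. Part of its reads may lie on Psme2b, a near-identical intronless copy with 17.8 to 51.8 CPM, so both values are uncertain. The sum of both symbols was 63.4 ± 5.33 CPM in LYVE1+CX3CR1+, 83.3 ± 21.2 CPM in MHCII+CD11c- and 108 ± 13.6 CPM in MHCII+CD11c+ controls (SD, n = 3). The other activators were at 49.5 to 102 CPM (Psme3, of the nuclear activator) and 85.8 to 154 CPM (Psme4, which encodes PA200), and neither was called in any comparison.

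Pomp, the maturation factor that helps β subunits, inducible ones included, to assemble, was at 54.2, 84.3 and 46.5 CPM, 45.0, 55.8 and 79.2 CPM and 90.6, 74.3 and 70.3 CPM in the LYVE1+CX3CR1+, MHCII+CD11c- and MHCII+CD11c+ controls and 48.3, 78.4 and 70.9 CPM, 65.9, 56.0 and 77.3 CPM and 69.0 and 73.8 CPM after IC. Its groups overlapped in every pair tested, and the averaged response to IC was 0.037 (95% interval -0.28 to 0.36). Of the other assembly factors, Psmg1, Psmg2 and Psmg3 each had 0 counts in at least 1 library, and none of the 8 was called in any of the 10 comparisons. The 4 further symbols were Psme2b, the pseudogene Psma5-ps (0.944 to 11.3 CPM), Psme3ip1 (10.1 to 45.6 CPM) and Psmc3ip, a factor of meiotic recombination (0 to 10.8 CPM). None of them was called.

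Neighbours of the pathway were read from 2 lists. Of 27 genes of ubiquitin supply and proteasome partners, 24 were in the table and tested. In the average over subsets 1 of 24 was called after IC, near the 3.35% of all genes, namely the polyubiquitin gene Ubb, which rose (log2 fold change 0.35, SE 0.082, adjusted p = 0.0158), and its levels were 1261, 1410 and 1212 CPM in LYVE1+CX3CR1+ controls and 1616, 1571 and 1732 CPM after IC, 1513, 1359 and 1482 CPM and 1683, 1829 and 1944 CPM in MHCII+CD11c- macrophages, and 1341, 1060 and 1285 CPM and 1577 and 1647 CPM in MHCII+CD11c+ macrophages. Libraries after IC were above the controls in all 3 subsets. Nfe2l1, which encodes the factor that induces proteasome genes when proteasome capacity is short, was not called (averaged log2 fold change 0.10, SE 0.11, adjusted p = 0.709). No gene of this list was called within a single subset after IC or between LYVE1+CX3CR1+ and MHCII+CD11c- controls. In MHCII+CD11c+ controls 2 of 24 were called higher than in MHCII+CD11c- controls, against 8.66% of all genes called and 3.67% called higher. They were the ubiquitin fusion gene Rps27a (log2 fold change 0.86, SE 0.20, adjusted p = 0.00699) and the segregase gene Vcp (log2 fold change 0.58, SE 0.17, adjusted p = 0.0280). Relative to the same MHCII+CD11c+ controls, LYVE1+CX3CR1+ controls had both genes called lower, and Ddi2, the protease that activates the Nfe2l1 product, called higher (log2 fold change 0.51, SE 0.17, adjusted p = 0.0449). These 3 of 24 compare with 15.2% of all genes. Set against all genes called in either direction, the counts of this list were thus near or below the background.

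Of 17 genes of interferon signalling and MHC class I loading, 16 were tested. After IC, 1 of 16 was called in the average over subsets, against 3.35% of all genes, namely B2m, the light chain of MHC class I (log2 fold change 0.42, SE 0.11, adjusted p = 0.0392), and none within a single subset. Between LYVE1+CX3CR1+ and MHCII+CD11c- controls 2 of 16 were called, both lower in LYVE1+CX3CR1+ macrophages, against 1.56% of all genes. They were Tap1, the divergent neighbour of Psmb9, at 38.4, 34.6 and 41.3 CPM against 111, 111 and 123 CPM (log2 fold change -1.59, SE 0.26, adjusted p = 0.00142), and Irf1, a transcription factor of interferon responses, at 235, 239 and 293 CPM against 379.6, 598 and 475 CPM (log2 fold change -0.92, SE 0.22, adjusted p = 0.0277). Tap1 kept its call in all alternatives, with adjusted p up to 0.0156. Against MHCII+CD11c+ controls, Tap1 and Irf1 were again called lower in LYVE1+CX3CR1+ controls (-1.54 and -0.73), together with the kinase gene Jak2 (-1.66), which makes 3 of 16 against 15.2% of all genes. In MHCII+CD11c+ controls, Jak2 was called higher (1.51) and Irf8 lower (-1.15) than in MHCII+CD11c- controls, 2 of 16 against 8.66%.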

How the data were processed

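RNA of sorted synovial macrophages was sequenced in 17 libraries with a stranded low-input total RNA kit. The authors trimmed reads with Trim Galore, aligned them to mm10 with HISAT2 and deposited raw counts per gene from featureCounts, in 22859 genes with a total of at least 3. Tool versions, the annotation, the strand setting and the treatment of reads with several hits are not given in the sources used here, so genes that overlap or have near-identical copies are uncertain. The authors worked with DESeq2 and sva. In all, 1 further column of the table matched no sample and was not used. Here, 15272 genes were kept (filterByExpr of edgeR 4.0.16, minimum count 10) and tested with the edgeR quasi-likelihood F test (two-sided, 17 libraries, 6 group means, TMM), with Benjamini-Hochberg adjustment over all genes and a call at an adjusted p under 0.05. The biological coefficient of variation was 45.1%, with 11 residual degrees of freedom, and depth was 2301913 to 7248939 counts. Standard errors came from the F statistic and 95% intervals from its degrees of freedom. Exon lengths came from GENCODE (98.7% of symbols matched) and promoter windows from RefSeq (GRCm38.p6, 44 of 53 members). Values per library are given for the 6 catalytic genes, Psme1, Psme2, Pomp and the members called in a comparison (8 at most, by p), and those of other members were chosen after they were seen. Members, lists and alternatives were chosen with earlier results of these data known. Alternatives used DESeq2 1.42.0, limma 3.58.1 and sva 3.50.0 in R 4.3.3, and the fits were tested on simulated data.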

Additional observations from a re-analysis of the deposited data

How the results depend on the processing

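No call of a member reversed in any alternative, and 6 of 31 calls held in all of them, namely Psmc1, Psmd1 and Psmd4 after IC in the average over subsets, and Psma7, Psmb3 and Psmb8 between LYVE1+CX3CR1+ and MHCII+CD11c+ controls. The number of members called after IC in LYVE1+CX3CR1+ macrophages was 1, and became 6 with DESeq2, 2 at equal depth, 0 with the compared groups alone and 0 at an adjusted p under 0.01. In MHCII+CD11c- macrophages it was 2, and became 5 with DESeq2, 1 with surrogate variables, 1 with the compared groups alone and 1 at an adjusted p under 0.01. In the average over subsets it was 8, and became 5 with surrogate variables, 5 with a length offset and 3 at an adjusted p under 0.01. Between LYVE1+CX3CR1+ and MHCII+CD11c- controls it was 0, and became 2 with limma and sample weights, 1 with DESeq2 and 1 with surrogate variables. Between LYVE1+CX3CR1+ and MHCII+CD11c+ controls it was 12, and became 3 at an adjusted p under 0.01. Between MHCII+CD11c+ and MHCII+CD11c- controls it was 8, and became 2 with surrogate variables, 5 with the compared groups alone and 4 at an adjusted p under 0.01. For the difference in response between LYVE1+CX3CR1+ and MHCII+CD11c- macrophages it was 0, and 1 with surrogate variables. The cause of these changes was not tested. Leaving out a library gave 0 to 1 calls after IC in LYVE1+CX3CR1+ macrophages, 0 to 4 in MHCII+CD11c- macrophages, 3 to 12 in the average, 0 to 1 between LYVE1+CX3CR1+ and MHCII+CD11c- controls, 4 to 11 for LYVE1+CX3CR1+ against MHCII+CD11c+ controls and 3 to 12 for MHCII+CD11c+ against MHCII+CD11c- controls. In MHCII+CD11c- macrophages after IC the count was 0 without the third control or the third IC library, 1 without the first control or the second IC library, and 4 without the second control. RLE scaling moved the median of all genes by 0.13 and 0.17 for the responses of LYVE1+CX3CR1+ macrophages against those of MHCII+CD11c- and MHCII+CD11c+ macrophages, and by under 0.1 elsewhere.

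Replicate numbers are shared between groups. Libraries of the same number and treatment deviated from their group means with correlations of 0.0013 to 0.286 over 16 pairs of libraries (median 0.041, 2 above 0.1). Libraries of the same treatment and another number had correlations of -0.150 to 0.067 over 32 pairs (median -0.029, 0 above 0.1). The median was thus higher for shared numbers, while most of these correlations were small. Whether the numbers pair the libraries was left undecided, and the main fits did not pair them. With the replicate number as a block, 1 member was called after IC in LYVE1+CX3CR1+ macrophages, 2 in MHCII+CD11c-, 0 in MHCII+CD11c+ and 6 in the average. In the controls the block gave 0 calls for LYVE1+CX3CR1+ against MHCII+CD11c- macrophages, 11 for LYVE1+CX3CR1+ against MHCII+CD11c+ and 8 for MHCII+CD11c+ against MHCII+CD11c-. With 2 or 3 libraries a group, members with few counts, such as Psma8, Psmg1 and Psmg2, could be compared only coarsely.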

Other observations

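Over the 6 group means of log2(CPM + 1), the genes whose pattern was most like that of Psmb8 were Mxd1, Fgl2, Pdia6, Nlrp3 and Hyou1, with Pearson correlations between 0.988 and 0.999. Those most like the mean of Psmb5, Psmb6 and Psmb7 were Gm17383, Ctbp1, Strap, Nomo1 and Arpc2, with correlations between 0.992 and 0.998. No proteasome gene was in either group of 5. With 6 points drawn from 17 libraries and 15272 genes to choose from, correlations of this size are a description of these group means and carry no p.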
